A study of Drosophila melanogaster with 3 samples.

Results

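The genes described here are the 95 protein-coding genes of Drosophila melanogaster whose annotated name begins with Cpr and a digit or with Twdl, out of 13945 protein-coding genes in the Ensembl annotation. There are 70 Cpr genes and 25 Twdl (Tweedle) genes, and any family member under another name is left out. The rule used names and no measured value, but the set was chosen with earlier results of these data known. Binding of the zinc finger protein Plzf, the product of CG6792, was mapped by chromatin immunoprecipitation and sequencing (ChIP-seq) in 3 biological replicates of a single group. The animals were whole prepupae of pooled sexes and unknown age from a transgenic line in which GFP is fused to the C terminus of Plzf. The precipitation used an antibody to GFP according to the description, whereas the antibody field names CG6792, and no second genotype, stage or treatment was there to compare with. Whole animals hold many tissues, so a peak cannot be assigned to the epidermis that makes cuticle, and a single tagged line limits the result to that fusion protein. The submitters deposited a list of 30000 regions for each replicate, another 30000 for the replicates pooled, and 7096 peaks selected by the irreproducible discovery rate (IDR), a measure of agreement between replicates. These IDR peaks were the 7096 strongest pooled regions, with a weakest signal (the peak height that the caller gave) of 79.6. The number of reads behind a region is unknown from these lists.

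Insect cuticle is a layered matrix of chitin and protein secreted by the epidermis. Most Cpr proteins carry the Rebers-Riddiford consensus, a stretch that binds chitin, and the Tweedle proteins form a separate family of cuticle proteins, known in flies from mutants with altered body shape. The epidermis renews the cuticle at each moult, and at the onset of metamorphosis pulses of the steroid ecdysone switch cuticle protein genes on and off in sequence through nuclear receptors and other transcription factors.

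The sequences that the results turn on are shown first, read from the RefSeq genome of the dm6 assembly (Release 6), 5′ to 3′. The first 4 are windows of 101 bases on the plus strand centred on a summit, the highest point of a region. They hold the IDR peak upstream of Cpr72Eb (chr3L:16364356-16364456), the IDR peak upstream of Cpr72Ea (chr3L:16361319-16361419), and weaker regions of the pooled list upstream of Cpr12A (chrX:13543288-13543388) and of Cpr72Ea (chr3L:16362168-16362268). All 4 lie between genes. Capitals mark, on either strand, TATAAA (the TATA box core) or TAATATA (an AT-rich word) or TAATTA (a homeodomain core) or TGATAA or AGATAA (both GATA factor words) or CGATA (the core of the DREF site).
Cpr72Eb IDR peak: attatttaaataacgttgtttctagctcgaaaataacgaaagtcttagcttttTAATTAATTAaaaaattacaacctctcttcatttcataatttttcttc
Cpr72Ea IDR peak: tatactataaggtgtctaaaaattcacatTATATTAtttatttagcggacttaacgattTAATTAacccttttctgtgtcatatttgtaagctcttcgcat
Cpr12A pooled region: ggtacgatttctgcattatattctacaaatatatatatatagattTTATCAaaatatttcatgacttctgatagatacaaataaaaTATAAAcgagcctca
Cpr72Ea pooled region: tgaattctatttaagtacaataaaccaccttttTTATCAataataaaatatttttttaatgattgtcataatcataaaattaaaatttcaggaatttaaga
The other 5 are the 80 bases just before the transcription start site (TSS), on the strand of the gene, with TATAAA in capitals where it falls wholly within the stretch 45 to 16 bases before the TSS. Cpr72Eb is the member whose TSS had an IDR peak (chr3L:16364819-16364898, plus strand), Cpr64Aa lies in a long stretch without a pooled summit (chr3L:4209179-4209258, minus strand), and TwdlM (chr3R:26619038-26619117, plus strand), TwdlB (chr3R:26623544-26623623, minus strand) and TwdlD (chr3R:26639945-26640024, plus strand) belong to the Tweedle array described further on.
Cpr72Eb promoter: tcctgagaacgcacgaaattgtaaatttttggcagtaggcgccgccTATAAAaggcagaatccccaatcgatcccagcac
Cpr64Aa promoter: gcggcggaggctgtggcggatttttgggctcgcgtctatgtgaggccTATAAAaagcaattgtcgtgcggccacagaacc
TwdlM promoter: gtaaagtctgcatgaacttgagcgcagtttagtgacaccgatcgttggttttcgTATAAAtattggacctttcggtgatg
TwdlB promoter: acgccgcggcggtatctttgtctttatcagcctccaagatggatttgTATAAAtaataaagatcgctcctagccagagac
TwdlD promoter: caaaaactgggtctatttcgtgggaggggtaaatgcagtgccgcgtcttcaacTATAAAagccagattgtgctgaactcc

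Of the 95 genes, 1 had an IDR summit no farther than 500 bp from a TSS, and it was Cpr72Eb. This was 1.05% of the genes (95% Wilson interval 0.186 to 5.72), against 19.8% of all protein-coding genes. A summit of the pooled list, which holds weak regions as well, lay within 500 bp of a TSS for 13 genes, or 13.7% (8.17 to 22.0), against 42.8% of all protein-coding genes. Each of the 13 was a Cpr gene, so the share was 18.6% of Cpr genes (11.2 to 29.2) and 0 of 25 Twdl genes (0 to 13.3). Of these 13 genes, 1 had an IDR summit at the TSS, against 46.3% of protein-coding genes with a pooled summit there. Most member genes, 87 of 95, had a single annotated TSS, and a gene with more TSSs has more chances of a summit. Among the single-TSS genes 1 of 87 had an IDR summit, against 14.3% of all single-TSS genes. The intervals cover the counting of genes only, and neighbouring genes are not independent.

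**Figure D1:**
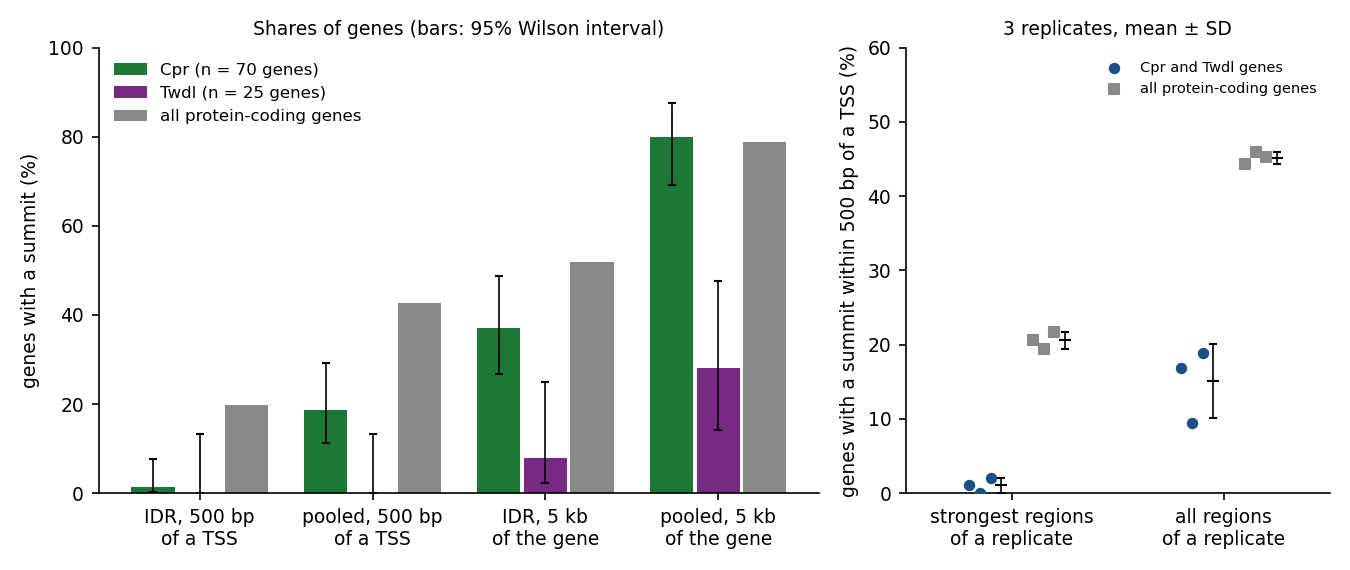
Left, percent of Cpr genes, Twdl genes and all protein-coding genes with a summit near a TSS or gene, with bars for the 95% Wilson interval. Right, percent of genes with a summit at a TSS in each of the 3 replicates (points) with mean ± SD; the Cpr and Twdl genes lie below all protein-coding genes in each replicate.

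The pattern was the same in sign in each replicate's own list. Taking the 7096 strongest regions of a replicate, 1 member gene in replicate 1, 0 in replicate 2 and 2 in replicate 3 had a summit at a TSS. The background was 20.6%, 19.4% and 21.7% of protein-coding genes in replicates 1, 2 and 3. The mean was 1.05% ± 1.05 for the members and 20.6% ± 1.15 for all protein-coding genes (SD, n = 3 replicates). With any of the regions in a replicate's list, 16, 9 and 18 members had a summit at a TSS in replicates 1, 2 and 3, against 44.3%, 46% and 45.2% of protein-coding genes. As shares these were 15.1% ± 4.97 for the members and 45.2% ± 0.820 for all protein-coding genes (SD, n = 3). Members were therefore below all protein-coding genes in 3 of 3 replicates, and replicate 2 held the fewest members.

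Most members had a summit at the TSS in no replicate list or in 1. No list had one for 64 members, against 39.9% of protein-coding genes, and all 3 had one for 2, against 31.3%. The 2 genes were Cpr72Ea and Cpr12A. A further 21 members had one in 1 list and 8 had one in 2 lists. The shares of all protein-coding genes for 1 and 2 lists were not counted. These counts depend on the window edge. The pooled regions at Cpr72Eb, Cpr97Ea and Cpr67Fb overlapped a region in every replicate, with summits on either side of 500 bp. For Cpr67Fb the strongest overlapping regions had summits 631, 688 and 403 bp upstream in replicates 1, 2 and 3. Replicate 1 also had a weaker summit inside the window, 431 bp upstream (signal 9.05). The pooled list had a stronger summit outside the window, 670 bp upstream of Cpr67Fb (signal 37.4). Among the Twdl genes 4 had a region in a single list, which were TwdlV in replicate 1, TwdlE and TwdlT in replicate 2 and TwdlW in replicate 3. No Twdl gene had one in a second list, and these 4 genes were singled out after their values were seen.

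Cpr72Ea, Cpr72Eb and Cpr72Ec, which encode cuticle proteins of 341, 217 and 429 residues, lie side by side on 3L and carried the strongest IDR peaks whose nearest TSS was that of a member. The peak upstream of Cpr72Eb (3L, 16364243 to 16364547) had a pooled signal of 349 and rank 998 in the pooled list. Its signals in the replicates' own lists were 99.0 in replicate 1, 156 in replicate 2 and 90.7 in replicate 3, with ranks 1111, 955 and 1149. Each list has its own scale, so the signals are not compared between lists, while the ranks, out of 30000 regions each, were close together. The summit lay 493 bp upstream of the TSS in the pooled list and in replicate 3. In replicates 1 and 2 it lay 532 and 526 bp upstream, so the TSS window of 500 bp did not count it there. Replicate 1 had another, weaker region with a summit inside the window, 329 bp upstream (signal 12.9, rank 13822). The peak was held by all 3 replicates, meaning that it overlapped one of the 7096 strongest regions in each, and 14.7% of protein-coding genes had a TSS with a peak held in that way. It was thus the only IDR peak at a member's TSS and it lay at the edge of the window.

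A second IDR peak of the same locus (3L, 16361261 to 16361395) lay 1234 bp upstream of Cpr72Ea, with a pooled signal of 328 and rank 1111. Its signals were 109, 152 and 69.4 in replicates 1, 2 and 3, and it was also held by all 3. Both peaks lay between genes and within 5 kb of all 3 Cpr72E genes, so neither can be assigned to one of them by position alone. Closer to Cpr72Ea, the pooled list had weak regions at 385 and 143 bp upstream with signals of 38.4 and 27.9. A single region per replicate overlapped both of these, with signals of 15.9, 8.71 and 10.8 in replicates 1, 2 and 3.

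**Figure D2:**
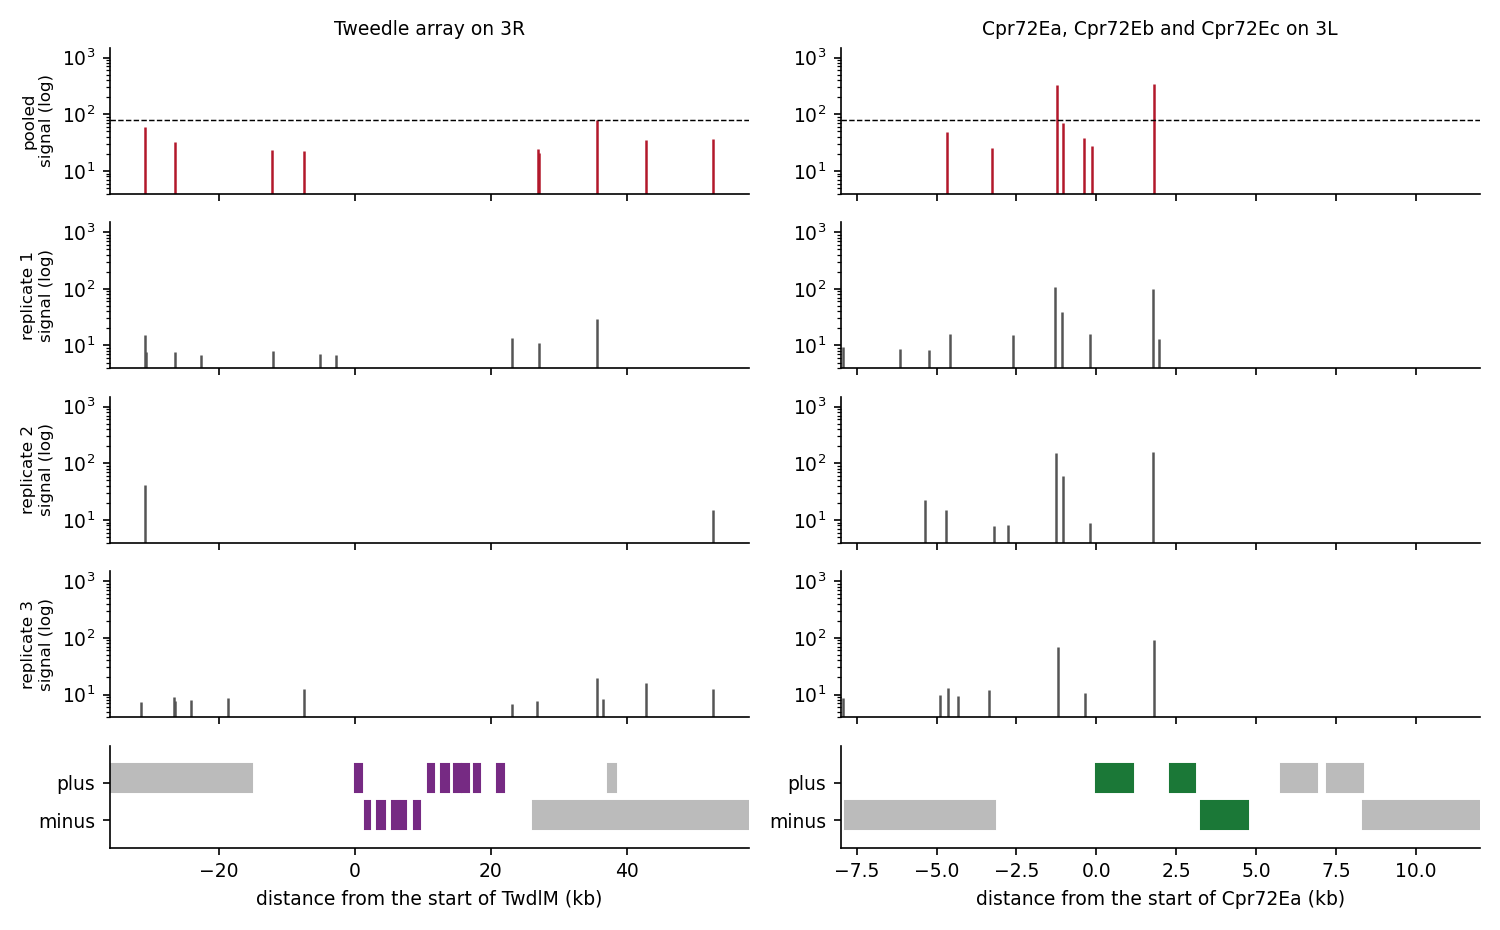
Signal of each summit (log scale, each list on its own scale) in the pooled list and replicates 1 to 3, by distance in kb from the start of TwdlM (left) and of Cpr72Ea (right); the dashed line is the weakest IDR signal of 79.6, purple and green boxes are Twdl and Cpr genes by strand, and grey boxes other protein-coding genes. No summit falls inside the array from TwdlM to TwdlD, and 2 pooled summits pass the line upstream of Cpr72Ea and Cpr72Eb. Another pooled summit passes it 35.6 kb from the start of TwdlM (signal 81.0), beyond the array. That summit lies upstream of Tb, which starts at 37.3 kb and which the name rule leaves out.

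Apart from the Cpr72Eb peak, the pooled regions at member TSSs were weak. Cpr12A had the next signal, 57.3, with a summit 305 bp upstream, and 30.4, 18.2 and 9.46 in replicates 1, 2 and 3. Its rank was 5609 in replicate 1 but 15058 and 18816 in replicates 2 and 3, so it was among the 7096 strongest regions in replicate 1 only. Cpr97Ea had a signal of 55.4, 491 bp upstream, with signals of 10.6, 21.8 and 25.5, and ranked 6260 in replicate 3. These 2 regions reached 72.0% and 69.6% of the weakest IDR signal.

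The pooled signals of Cpr67Fb (28.5), Cpr51A (28.2), Cpr62Ba (24.3), Cpr67Fa1 (19.2), Cpr31A (18.9), Cpr49Ac (17.9) and Cpr47Eb (17.8) were lower still. Cpr50Ca (17.8) and Cpr78Cc (17.5) complete the 13 genes, and the lowest signal in the pooled list was 16.5. The Cpr51A region had a signal of 13.2 in replicate 1 and 13.2 in replicate 3 and no overlapping region in replicate 2, and the Cpr49Ac region overlapped none in any replicate. Over the 14 regions of the 13 genes the median signal was 26.1, against 49.9 for the 7467 pooled regions at protein-coding TSSs, and 10 of the 14 were in the weaker 50% of the pooled list.

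Summits at member TSSs lay mostly upstream and away from the TSS. Upstream summits made up 12 of 14 (85.7%), against 67.1% of pooled regions at protein-coding TSSs. The median position was 308 bp upstream for the members and 76 bp upstream for all. Within 250 bp of the TSS were 5 of the 14 summits (35.7%), against 71.9% of all, which leaves 9 in the outer part of the window. The regions just inside the limit were those of Cpr72Eb at 493 bp, Cpr97Ea at 491 bp and Cpr67Fb at 442 bp upstream. Just outside were summits of Cpr97Eb at 614 bp (signal 20.2) and Cpr49Ah at 624 bp (signal 60.6) upstream.

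**Figure D3:**
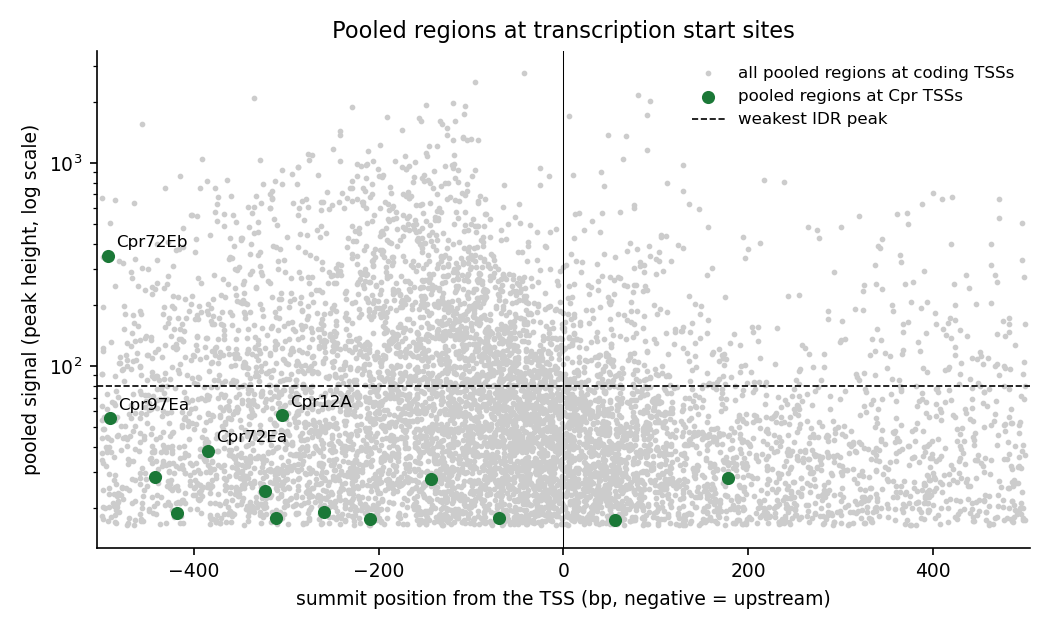
Pooled signal (log scale) against the position of the summit from the TSS in bp, negative being upstream, for the 14 pooled regions at Cpr TSSs (green) and all pooled regions at protein-coding TSSs (grey); the dashed line is the weakest IDR signal. The Cpr72Eb region is the only green point above the line, and 12 of 14 green points lie upstream.

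In the wider window of 5 kb from the gene, 28 members had an IDR summit, or 29.5% (21.2 to 39.3), against 52% of protein-coding genes. This window spans the gene body and 5 kb on each side, so a longer gene has a wider window. Gene length was not matched between members and other genes, here or in the distances below. The families differed in count, with 26 of 70 Cpr genes (37.1%) and 2 of 25 Twdl genes (8%). For any pooled summit within 5 kb the count was 63 of 95 (66.3%), against 78.9% of protein-coding genes. Cpr genes alone had a pooled summit in 56 of 70 cases (80%), close to that background, and Twdl genes in 7 of 25 (28%). The median distance from a gene to the nearest IDR summit was 7128.5 bp for Cpr genes, 18754 bp for Twdl genes and 4473 bp for all protein-coding genes. To the nearest pooled summit it was 1127, 8934 and 423 bp.

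**Figure D4:**
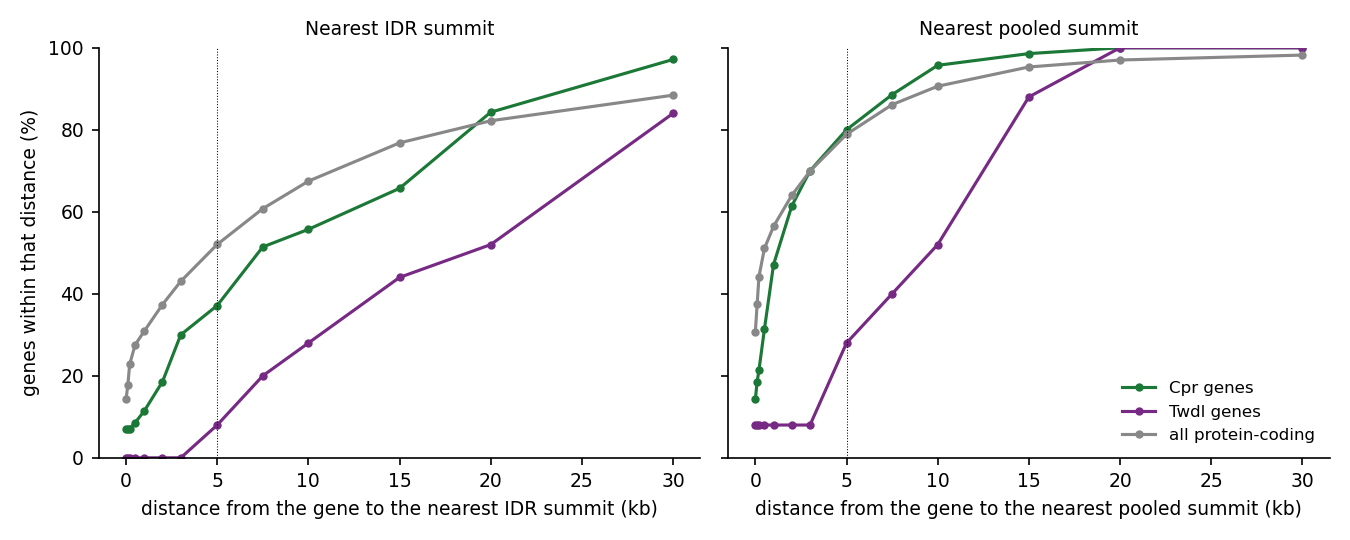
Percent of Cpr genes, Twdl genes and all protein-coding genes whose nearest IDR summit (left) or pooled summit (right) lies within a given distance of the gene in kb; the dotted line marks 5 kb. The Cpr curve meets the curve of all genes at 5 kb for pooled summits (80% and 78.9%) and lies below it for IDR summits (37.1% and 52%), and the Twdl curve lies below both at 5 kb.

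The 28 genes shared 23 IDR summits, of which 8 lay within 5 kb of more than 1 member. A member's TSS was the nearest protein-coding TSS for 12 of them. The summits were between genes in 14 cases (60.9%, against 38.4% of all IDR summits) and in introns in 8 (34.8%, against 53.8%). All 3 replicates held 14 of the 23, a share that was not counted over all IDR peaks. Their median signal was 134, beside 145 for all IDR peaks.

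The strongest of these summits lay at or in genes that do not encode members. The peak near Cpr78Cc (3L, 21304371 to 21304773) had a signal of 1159 and rank 63, with signals of 340, 542 and 276 in replicates 1, 2 and 3. It lay 90 bp inside CG11309 and 3397 bp from Cpr78Cc. The peak near Cpr31A (2L, 10057262 to 10057612) had a signal of 827, and in replicates 1, 2 and 3 it reached 214, 351 and 248. It lay in an intron of Pen, which encodes an importin alpha of nuclear import, 1505 bp from Cpr31A. The peak 4855 bp from Cpr67B (signal 189) was 9 bp upstream of Cpsf5, a subunit of a pre-mRNA cleavage factor, and had signals of 59.4, 76.0 and 51.0 in replicates 1, 2 and 3.

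Other peaks lay inside a member or had one as the nearest gene. Cpr51A had a peak 3045 bp upstream with a signal of 297, which was 100, 115 and 83.4 in replicates 1, 2 and 3. Another in its intron had a signal of 153, and 59.4, 70.0 and 50.9 in the replicates, and lay 266 bp upstream of CG30197. Cpr62Ba had a peak in its own intron, 821 bp upstream of its nearest TSS, with a signal of 144, and 35.0, 69.3 and 32.9 in replicates 1, 2 and 3. Cpr62Bb was within 5 kb of the same peak. Cpr12A had a peak 2285 bp upstream with a signal of 143, and 44.5, 43.7 and 40.3 in the replicates. Each of these 4 peaks was held by all 3 replicates. The 2 Tweedle genes were TwdlC, 4743 bp from a peak with a signal of 174, and TwdlF, 3697 bp from a peak with a signal of 117. These 2 peaks lay 237 and 177 bp upstream of CG31076 and CG34305, so neither had the Tweedle gene as its nearest gene.

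The genes with a Twdl name stood mostly in long stretches without regions. The 12 genes from TwdlM to TwdlD form an array of 21.9 kb on 3R (26619118 to 26641054) with 0 other protein-coding genes inside. No summit of the IDR list, the pooled list or any of the 3 replicate lists fell in that span. The stretch without a summit around the array was 34.3 kb in the pooled list, where 1.25% of the gaps between neighbouring summits were as long and the median gap was 1482 bp. It was 25.9, 83.6 and 30.6 kb in replicates 1, 2 and 3, where 1.61%, 0.217% and 1.07% of gaps were as long. In the IDR list it was 97.1 kb, and 2.72% of gaps were as long. These shares count gaps and not bases. A long gap holds more of the genome than a short one, so the shares do not say how rare such a location is. The array was singled out after its values were seen.

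Other groups of members lay in such stretches as well. The 4 genes TwdlX, TwdlY, TwdlZ and Twdlalpha on X shared a gap of 25.9 kb in the pooled list, and Cpr64Aa, Cpr64Ab, Cpr64Ac and Cpr64Ad on 3L one of 30.2 kb. The gap on X was 23.2, 24.8 and 26.2 kb in replicates 1, 2 and 3. That on 3L was 15.9 kb in replicate 1, and 30.25 and 25.5 kb in replicates 2 and 3. These groups were singled out after their values were seen. The TSS lay in a pooled gap of 20 kb or more for 23 of 25 Twdl genes, 28 of 70 Cpr genes and 51 of 95 members (53.7%), against 30.2% of protein-coding genes. A TSS near the edge of a gap counts too, and that of Cpr72Eb was one. Of the 51 members, 6 (11.8%) had an IDR summit within 5 kb, against 20.7% of other protein-coding genes in such gaps. The limit of 20 kb was also set after the lists had been seen. By arrangement, an IDR summit within 5 kb was found for 3 of 34 members in arrays of 5 or more genes (8.82%), 16 of 32 in groups of 2 to 4 (50%) and 9 of 29 standing alone (31.0%), against 52% of protein-coding genes. Whether reads could be placed uniquely in these arrays cannot be read from the lists. A measure from the genome alone is the share of 32-base words in the TSS window that occur elsewhere in it. It was 0 for 83 members, and above 10% for Cpr65Ax1 (76.2%), Cpr65Ax2 (72.1%), TwdlL (16.6%), TwdlK (16.3%), TwdlJ (14.9%) and TwdlM (10.4%). That is 6.32% of members, beside 4.17% of protein-coding genes.

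As a set, the promoters of the members differed from those of all protein-coding genes. TATAAA, the core of the TATA box, stood on the gene's strand 45 to 16 bp before the TSS in 54 members (56.8%), of which 39 were Cpr and 15 Twdl genes, against 8.75% of all protein-coding promoters. GC content from 250 bp before to 50 bp after the TSS averaged 44.8% ± 5.81 (SD, n = 95 genes) for members and 39.1% ± 7.74 (SD) for all protein-coding genes. Another protein-coding TSS lay within 1000 bp for 7 members (7.37%), against 42.9% of protein-coding genes.

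**Figure D5:**
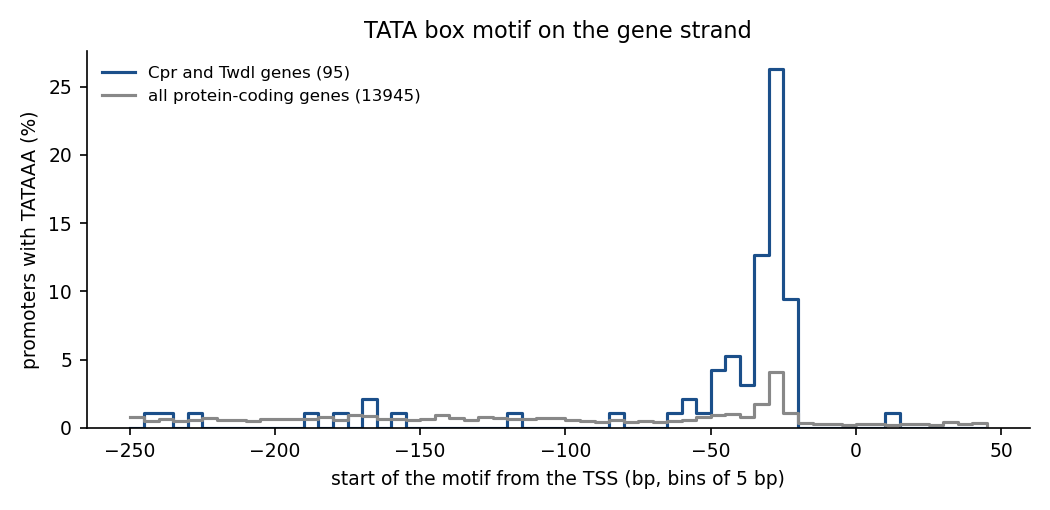
Percent of promoters with TATAAA on the gene strand, in bins of 5 bp by the start of the motif from the TSS, for the 95 Cpr and Twdl genes and all 13945 protein-coding genes. Both curves peak within the window 45 to 16 bp before the TSS, which holds the motif in 56.8% of the members and 8.75% of all.

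Genes with these kinds of promoter had a lower share of IDR summits at the TSS than all protein-coding genes. Protein-coding genes with 1 TSS and no other coding TSS within 1000 bp had an IDR summit at the TSS in 7.58% of cases, against 1 of 82 such members (1.22%). A pooled summit was at the TSS for 10 of these 82 members (12.2%) and for 25.9% of such genes outside the families. For protein-coding genes with TATAAA at that position it was 6.8%, against 1 of 54 members (1.85%), and a pooled summit was found for 8 of 54 members (14.8%) and 22.4% of such genes outside the families. With both conditions the background was 3.23%, and the members had 1 of 51 (1.96%) beside 23 of 693 other genes (3.32%). In that last set a pooled summit at the TSS was found for 8 of 51 members (15.7%) and 115 of 693 other genes (16.6%), and the 8 were all Cpr genes (21.6% of 37) with 0 of 14 Twdl genes. An IDR summit within 5 kb was found for 17 of 51 members (33.3%) and for 28.4% of the other genes. At the TSS the members' shares were therefore below those of other genes under either condition alone. They were near them under both together, a set that holds 51 of the 95 members. Within 5 kb, an IDR summit was found for 26.8% of members and 39.4% of other genes with the first condition alone. With TATAAA alone these shares were 33.3% and 32.2%. The conditions were chosen after the members' counts were known, and the part of promoter kind in the members' counts was not tested.

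The bases at the summits were poor in GC. The mean over the 14 pooled regions at member TSSs was 32.2% ± 9.97 (SD, n = 14 regions) in the window of 101 bases, and 41.4% in windows centred 300 bp away. For all pooled regions at protein-coding TSSs it was 39.6% ± 10.9 (SD) at the summit and 42.8% in the flanks. At the 23 IDR summits within 5 kb of members it was 31.6% ± 8.09 (SD, n = 23) with 42.7% in the flanks, close to 33.3% and 45.1% for all IDR summits. The Cpr72Eb window printed above had 22.8% GC, and the pooled window of Cpr72Ea 16.8%.

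Motif matches at these summits rest on few windows. TAATTA, the core of many homeodomain sites, was found in both IDR windows of the Cpr72E locus and in 3 of 23 IDR windows near members (13.0%), against 9.78% of all IDR windows. TATAAA on either strand was in 2 of 23 (8.70%), against 22.1%. TGATAA, a form of the GATA factor site, was in 3 of the 14 pooled windows at member TSSs (21.4%), against 7.86% of pooled windows at protein-coding TSSs, and in 1 of 23 IDR windows (4.35%), against 9.50%. In the pooled windows of Cpr72Ea and Cpr12A printed above it is the capital run TTATCA, on the other strand. AGGTCA, the half-site word of nuclear receptors, was in 1 of the 14 and 0 of the 23 windows, against 1.63% and 2.03%. CGATA was in 0 of the 14, against 17.5%, and in 3 of 23 (13.0%), against 12.5% of all IDR windows. With 14 and 23 windows, 1 match more or less moves a share by several percentage points, and no motif was tested. A match describes the letters and shows no binding site.

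Translated from the annotation, the Cpr proteins split into 26 with a pattern of the RR-1 form of the consensus, 14 with that of the RR-2 form and 30 with neither of these strict patterns. The last class holds the 3 Cpr72E proteins and Cpr12A. A pooled summit at the TSS was found for 4 of 26, 2 of 14 and 7 of 30 genes of these classes (15.4%, 14.3% and 23.3%), against 42.8% of protein-coding genes. An IDR summit within 5 kb was found for 8 (30.8%), 5 (35.7%) and 13 (43.3%), against 52% of protein-coding genes. The patterns are strict, so the third class need not lack the domain.

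Other genes of cuticle formation were counted by the same rule from lists chosen by name. Of 38 further cuticle protein genes, such as Lcp, Ccp and Acp genes, 0 had an IDR summit at a TSS, 6 had a pooled summit there and 11 (28.9%) had an IDR summit within 5 kb, close to the members' 29.5%. The shares of all protein-coding genes were 19.8%, 42.8% and 52%, in that order. Among 33 genes of chitin and cuticle formation, 7 (21.2%) had an IDR summit at a TSS, near the 19.8% of all protein-coding genes. The strongest were at Cht7, a chitinase gene (signal 405), tyn (258), mmy, whose enzyme makes the UDP-sugar precursor of chitin (198), sha (160) and Gfat2, an enzyme of amino sugar synthesis (113). The Cht7 peak (3L, 3106981 to 3107313) had signals of 133, 185 and 90.2 in replicates 1, 2 and 3. Of the same 33 genes, 26 had a pooled summit at a TSS, against 42.8% of protein-coding genes. An IDR summit within 5 kb was found for 18 of them (54.5%), against 52%. Of 14 transcription factor genes that act on cuticle genes, 7 (50%) had an IDR summit at a TSS, against 19.8%, and 14 had one within 5 kb, against 52%. These were led by Eip75B, an ecdysone-induced nuclear receptor (574), grh, a regulator of epidermal genes (377), Hr3 (294), Eip74EF (227) and usp, the partner of the ecdysone receptor (203). Several of them have more than 1 TSS, as Eip75B with 7, which gives more windows for a summit than the single TSS of most members. The window of 5 kb around the gene also grows with gene length, and that of Eip75B held 14 IDR summits.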

How the data were processed

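ChIP-seq of GFP-tagged Plzf in whole prepupae gave 3 replicate lists, a pooled list and an IDR list on dm6 in narrowPeak form, per the file headers. Alignments and a control library entered region calling, per the file headers. The aligner, caller and IDR cutoff, with their versions, are not given in the sources at hand. The deposited signal of a region is its height from the authors' caller, scaled per list, so signals were never compared between lists. Many regions share the highest value of the deposited −log10 q-value, which therefore ranked nothing. The deposited summit offset, counted from the region start, gave each summit.

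A summit was assigned to a gene within 500 bp of any TSS, and separately within 5 kb of the gene body (Ensembl release 115, coordinates counted from 1). Sequences came from the dm6 genome in RefSeq, and protein classes from translating the annotated coding sequence, since no protein table was used. Computations used Python 3.11.15 with numpy 2.4.6, pandas 2.3.3 and scipy 1.17.1. The assignment was tested on simulated data with planted summits. Intervals are Wilson intervals at 95% and cover counting only. No test was made: shares stand beside those of all protein-coding genes, and p-values were not computed. Depth is unknown, which leaves the precision of each region unknown. The replicates are labelled as biological, but nothing says how the animals were collected.

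The members and lists were chosen with earlier results of these data known. Named genes are members with an IDR summit at a TSS, up to 10 with one within 5 kb by signal, the 10 of highest pooled signal at a TSS, and of the other lists up to 5 with an IDR peak at a TSS by signal. Cpr50Ca, Cpr49Ah, Cpr97Eb, TwdlF, the Twdl genes with a region in 1 replicate list, and the genes of the arrays, of the gaps and of repeated sequence fall outside that rule and were named after their values were seen. Of the listed names, obst-C, laccase2, E78 and Hr46 were not found in the annotation. Sequence of chromosome arm 2R is not reported here. Lists on dm3 were not used, and 6 mitochondrial regions of replicate 2 were left out. Alternatives were other windows and distances, other rules of overlap, other TSS choices and leaving out a replicate.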

Additional observations from a re-analysis of the deposited data

How the results depend on the processing

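Counts moved with the width of the window, for members and background alike. With a TSS window of 250 bp, 0 members had an IDR summit and 5 a pooled summit. With 1000 bp these were 3 and 24, and the background of IDR summits was 15.1% and 23.6% of protein-coding genes. The background of pooled summits was not counted at these widths. Within 2 kb and 10 kb of the gene, 13 (13.7%) and 46 (48.4%) members had an IDR summit, against 37.4% and 67.5%. The mean count per replicate of 1 among the strongest regions became 14.3 with all regions and 4 with 1000 bp. Without replicate 1, 2 or 3 in turn that mean was 1, 1.5 and 0.5, and the Cpr72Eb peak was held by all remaining replicates each time. The IDR and pooled lists were made by the authors on all 3 replicates, so they could not be recomputed without one. Counting any base of a region, the 5′-most TSS, peaks of above-median signal, or the nearest coding TSS left the IDR count at 1. So did 2 alternatives chosen after seeing the data (genes with 1 TSS, and those with no other coding TSS within 1000 bp). The count of members with a pooled region at a TSS rose from 13 to 18 with any base counted. Depth is unknown, so a missing region cannot be told apart from too few reads. Pairing does not apply to a single group.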
